A study of Rattus norvegicus with 18 samples.

Results

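The genes described are 7 that move glutamate or cystine across the plasma membrane or use what is carried: the glutamate transporter genes Slc1a1, Slc1a2 and Slc1a3, the neutral amino acid exchanger genes Slc1a4 and Slc1a5, the cystine-glutamate exchanger gene Slc7a11 and the glutamine synthetase gene Glul. They were taken by gene symbol from the expression tables of CD11b/c+ synovial cells, in which they are 7 of 30643 listed genes at each time point. The group was built around Slc1a3 because its level at 4 weeks had separated OA from sham: it was chosen by its normalized reads in these same 10 libraries, and that comparison is described here without a test. The other genes, and Slc1a3 at 12 weeks, were tested.

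All rats were wild type male Sprague Dawley, 12 weeks old at surgery. Post traumatic osteoarthritis (OA) was induced by cutting the anterior cruciate ligament and destabilising the medial meniscus, and sham surgical controls had the joint opened only. Cells of the synovial tissue were pulled down with CD11b/c antibody, and each library came from 1 pool of 4 rats at 4 weeks or of 3 rats at 12 weeks. There were 5 OA and 5 sham libraries at 4-weeks post surgery and 4 of each at 12-weeks post surgery. A pool hides the spread between its rats, so n counts pools.

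Glutamate carriers of the Slc1 family bring glutamate into the cell together with sodium ions, against its concentration gradient, and the sodium pump maintains the gradient that drives them. Slc1a3 encodes the carrier known as GLAST, best described in astrocytes, where it clears glutamate released by neurons and glutamine synthetase then turns it into glutamine. Macrophages also carry glutamate, and glutamate leaving the cell through the Slc7a11 exchanger is traded for cystine, which supplies the cysteine of glutathione.

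Libraries held 4662344 to 18080503 reads assigned to genes. The fewest were in sham replicate 3 at 4-weeks. All 13 macrophage marker genes were detected at both time points, and their summed levels overlapped between OA and sham, at 115747 to 137320 against 109195 to 125462 normalized reads at 4-weeks and 151862 to 179993 against 125366 to 172231 at 12-weeks. The means of 11 of the 13 were higher in OA at each time point. Fibroblast genes were also detected, with sums of 85498 to 127945 in OA and 56212 to 127461 in sham at 4-weeks. Endothelial genes had sums of 43235 to 58326 in OA and 46897 to 60359 in sham, and pericyte and smooth muscle genes 17776 to 19869 and 18597 to 23217. Markers of other cell types were therefore present in the sorted cells. A normalized read is a read count divided by the size factor of its library; the time points were scaled separately, and levels are therefore compared within a time point. Transcript lengths were not used, so levels are not compared between genes.

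Slc1a3 (ENSRNOG00000016163) was higher in every OA library than in every sham library at 4-weeks after surgery. OA replicates 1 to 5 had 203, 179, 248, 244 and 167 normalized reads. Sham replicates 1 to 5 had 99.5, 82.4, 121, 77.4 and 88.4 normalized reads. The lowest OA library thus lay above the highest sham library, a separation that 1.18% of all genes tested showed in this direction, and both groups were similarly tight, with coefficients of variation of 17.7% in OA and 18.4% in sham. On the log2(normalized reads + 1) scale used for all differences below, OA was 1.14 higher (SE 0.15, n = 5 and 5), and the OA mean was 2.22 times the sham mean. The difference lay between 1.08 and 1.24 when any single library was left out. The highest sham value came from replicate 3, where it rested on 52 reads. In sorted bulk samples, more cells that express Slc1a3 and more Slc1a3 RNA per cell cannot be told apart.

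At 12-weeks the OA and sham libraries overlapped. OA replicates 1 to 4 had 123, 161, 241 and 163 normalized reads of Slc1a3. Sham replicates 1 to 4 had 226, 61.9, 107 and 217. The sham libraries fell into 2 high and 2 low values and spanned 3.65-fold, against 1.96-fold in OA. OA was 0.31 higher than sham (95% interval -0.53 to 1.16), which did not pass limma's moderated test (adjusted p = 0.746) or the exact two-sided permutation test (p = 0.571, n = 4 and 4, smallest possible p 0.0286). The direction depended on sham replicate 2: without it the difference was -0.055. That library also had the highest sum of 10 genes of dividing cells, 6184 normalized reads against 1380 to 2866 in the other sham libraries and 1560 to 2398 in OA; whether this bears on its Slc1a3 level was not tested.

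**Figure D1:**
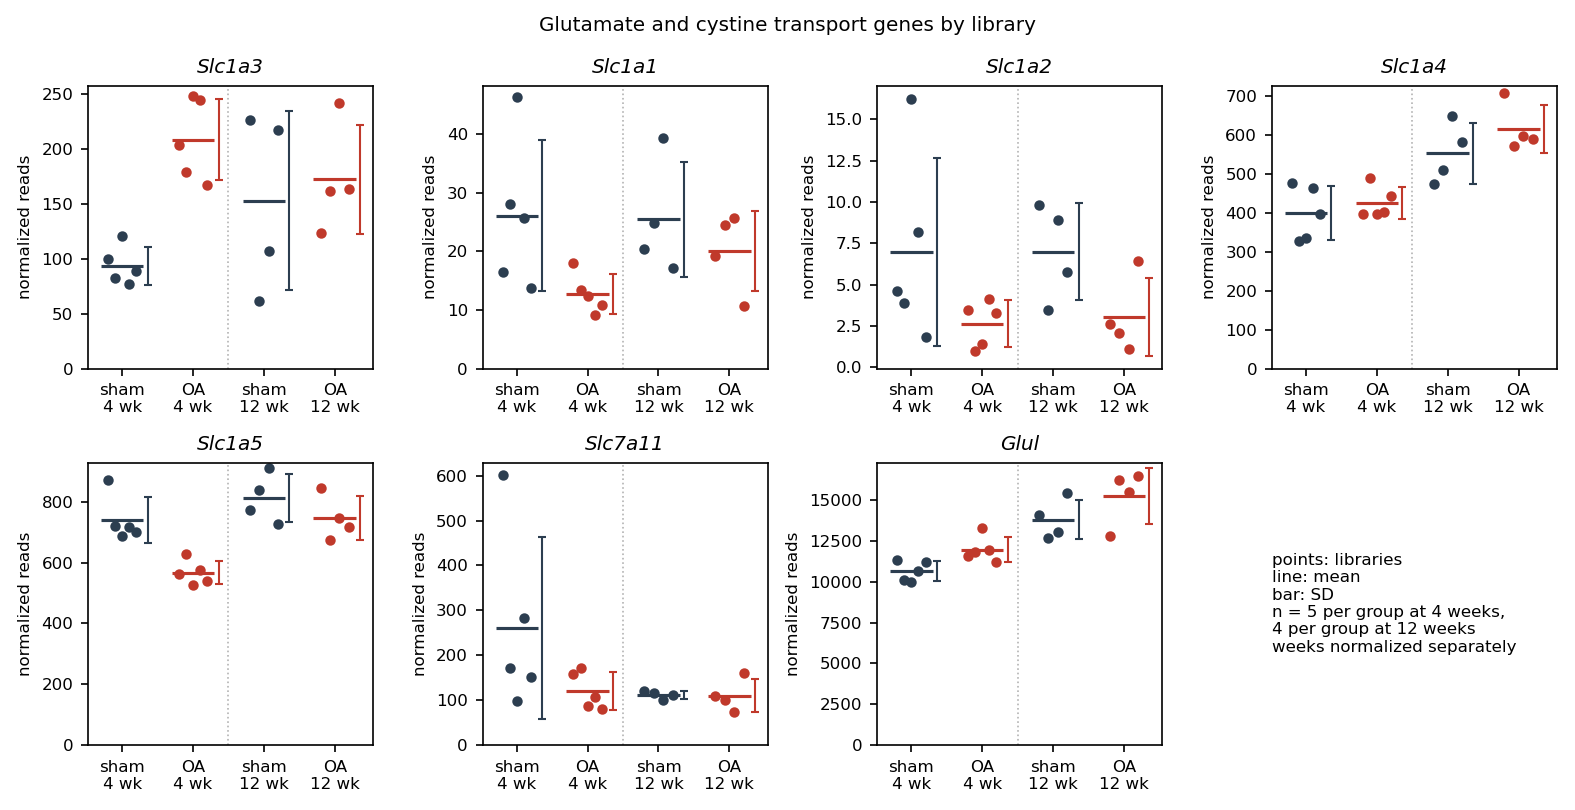
Normalized reads (vertical axes, each from about 0) of the 7 genes in every library, in the sham and OA groups at 4 and 12 weeks; points are libraries, lines are group means and bars are SDs (n = 5 per group at 4 weeks and 4 at 12 weeks). Slc1a3 and Slc1a5 are the genes whose OA and sham points do not overlap at 4 weeks, Slc1a3 higher and Slc1a5 lower in OA, and none of the 7 is separated at 12 weeks.

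Placed on a common scale across all 18 libraries, log2 CPM (read counts scaled by TMM to a common library size), mean Slc1a3 levels were ordered sham at 4-weeks (3.01 ± 0.28, SD), sham at 12-weeks (3.33 ± 0.88), OA at 12-weeks (3.65 ± 0.39) and OA at 4-weeks (4.12 ± 0.26). Each group overlapped its neighbour in that order. The OA minus sham difference was 1.12 at 4-weeks and 0.32 at 12-weeks on this scale, given as values with no test because the first of them chose the gene. Time after surgery, pool size and library preparation cannot be told apart between the time points.

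Slc1a1 (ENSRNOG00000014816), which encodes the neuronal and epithelial glutamate carrier that also takes up cysteine, had low levels that ran opposite to Slc1a3 at 4-weeks. OA replicates 1 to 5 had 18.0, 13.3, 12.4, 9.14 and 10.8 normalized reads. Sham replicates had 16.6, 28.1, 46.4, 25.8 and 13.8. Of the 5 OA libraries, 4 lay below the lowest sham library, and the mean difference was -0.89 (95% interval -1.60 to -0.19). The exact permutation test gave p = 0.0317 (two-sided, n = 5 and 5), but the gene did not pass after adjustment over all genes (limma adjusted p = 0.570). The libraries held only 10 to 29 reads of it each, and without sham replicate 3, the highest, the difference was -0.66. At 12-weeks OA and sham overlapped, at 10.7 to 25.7 and 17.2 to 39.4 normalized reads, with a difference of -0.34 (95% interval -1.06 to 0.39, limma adjusted p = 0.683).

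Slc1a2 (ENSRNOG00000005479), the main glutamate carrier gene of forebrain astrocytes, was barely detected. Each library held 1 to 13 reads of it, near the level of 2.06 to 6.96 normalized reads that 3 reads are worth, and its mean stayed under the minimum of 10 normalized reads needed for the fit. Means were 2.64 in OA and 6.95 in sham at 4-weeks (exact permutation p = 0.0952, n = 5 and 5) and 3.04 in OA and 6.98 in sham at 12-weeks (p = 0.0857, n = 4 and 4). A difference was not detectable at this depth.

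The split of reads among the 3 glutamate carriers does not depend on library scaling. At 4-weeks Slc1a3 took 90.4 to 94.8% of the reads of Slc1a1, Slc1a2 and Slc1a3 in OA libraries (mean 93.0% ± 1.86, SD, n = 5) and 65.8 to 85.0% in sham libraries (74.9% ± 8.34, n = 5). The 2 groups did not overlap; Slc1a3 is in the ratio, so no test was made. At 12-weeks the shares were 87.8% ± 2.82 in OA and 79.0% ± 11.9 in sham (n = 4 each), and they did not differ by the exact permutation test (difference 8.81 percentage points, p = 0.314). The sham spread came from replicates 2 and 3 at 68.6% and 68.9% (exact binomial 95% intervals 58.8 to 77.3% and 59.8 to 76.9%), while replicates 1 and 4, at 88.2% and 90.4%, lay within the range of the OA libraries. Longer transcripts collect more reads, so these are shares of reads and not of molecules.

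**Figure D2:**
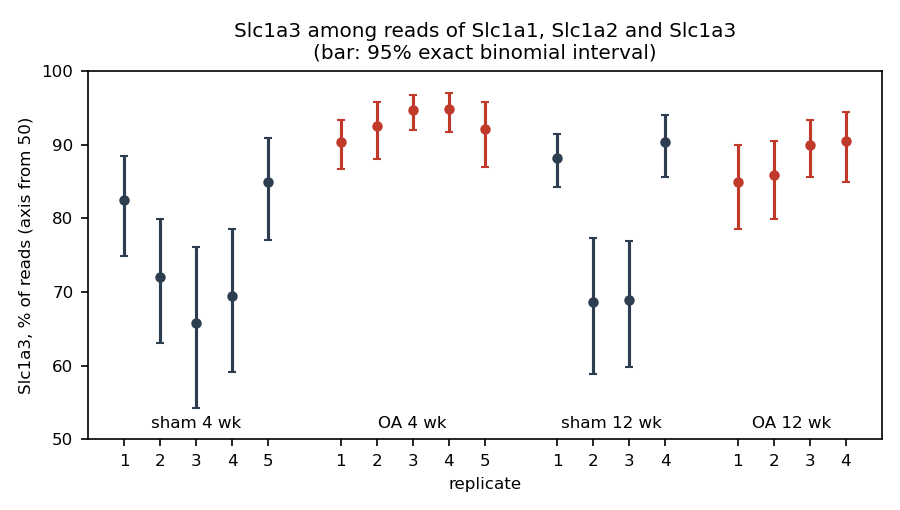
Share of Slc1a3 (vertical axis, percent, starting at 50) among the reads of Slc1a1, Slc1a2 and Slc1a3 in each of the 18 libraries, by group and replicate; bars are exact binomial 95% intervals, which cover counting error only. All 5 OA libraries at 4 weeks lie above all 5 sham libraries, and sham replicates 2 and 3 at 12 weeks lie near 69%, below the other sham libraries.

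Slc1a5 (ENSRNOG00000015948), which encodes the exchanger that brings glutamine into many proliferating and immune cells, was lower in every OA library than in every sham library at 4-weeks. OA replicates 1 to 5 had 564, 628, 528, 577 and 541 normalized reads (mean 568 ± 38.7, SD). Sham replicates had 872, 719, 687, 717 and 702 (mean 740 ± 75.2). The groups were separate but the difference was small, -0.38 (SE 0.083, 95% interval -0.56 to -0.20). The exact permutation test gave p = 0.00794 (two-sided, n = 5 and 5), the smallest it can give. Among all 14861 genes tested, groups were separated in this direction for 103 (0.693%) and in either direction for 1.87%. After adjustment over all genes, Slc1a5 did not pass in limma (adjusted p = 0.389) or edgeR (adjusted p = 0.267), passed in DESeq2 (adjusted p = 0.0144), and in all 3 stayed under the minimum log2 difference of 0.5 set for a call. Without sham replicate 1, the highest library, the difference was -0.32.

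At 12-weeks the Slc1a5 libraries overlapped, at 675 to 846 normalized reads in OA and 729 to 911 in sham, with a difference of -0.12 (95% interval -0.33 to 0.080, limma adjusted p = 0.582). The difference between OA and sham was 0.29 log2 less negative at 12-weeks than at 4-weeks (95% interval 0.036 to 0.54), which did not pass over all genes in limma's interaction test (adjusted p = 0.956). Slc1a4 (ENSRNOG00000005248), the related exchanger of alanine, serine and cysteine, had 396 to 490 normalized reads in OA and 327 to 477 in sham at 4-weeks. It differed by 0.099 at 4-weeks (95% interval -0.16 to 0.36, limma adjusted p = 0.826) and by 0.16 at 12-weeks (-0.083 to 0.40, adjusted p = 0.550), so a difference of 0.5 lay outside both intervals.

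Slc7a11 (ENSRNOG00000010210), the transport subunit of the cystine-glutamate exchanger, varied widely among the sham pools at 4-weeks. OA replicates 1 to 5 had 157, 172, 86.5, 107 and 79.2 normalized reads. Sham replicates had 602, 171, 97.5, 282 and 152, a 6.18-fold span that was set by replicate 1. The mean difference was -0.88 (95% interval -1.77 to 0.0085), and it passed neither limma (adjusted p = 0.635) nor the exact permutation test (p = 0.127, n = 5 and 5). Without sham replicate 1 it was -0.51, and without the shallow sham replicate 3 it was -1.16, the 2 ends of the range over fits that left out a library. In the fit without replicate 3 limma's p was under 0.05 before adjustment. No alternative fit passed after adjustment (lowest adjusted p = 0.354). At 12-weeks the sham libraries lay close together, at 99.2 to 121 normalized reads, inside the OA range of 72.9 to 160, and the difference was -0.071 (95% interval -0.53 to 0.38, limma adjusted p = 0.901). Slc3a2, which encodes the partner subunit that Slc7a11 needs at the cell surface, had 3053 to 3372 normalized reads in OA and 3162 to 3786 in sham at 4-weeks. Its differences were -0.042 and -0.038 at the 2 time points (limma adjusted p = 0.879 and 0.849).

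Glul (ENSRNOG00000049560), which makes glutamine from glutamate and ammonia, was covered by many reads, with 4309 to 19337 reads per library, and varied little. At 4-weeks OA libraries had 11243 to 13280 normalized reads and sham libraries 10001 to 11331. Of the 5 OA libraries, 4 lay above every sham library, a difference of 0.17 (95% interval -0.010 to 0.34). The exact permutation test gave p = 0.0159 (n = 5 and 5), and limma's adjusted p was 0.643. At 12-weeks, 3 of the 4 OA libraries lay above every sham library, at 12812 to 16509 against 12723 to 15435, with a difference of 0.14 (95% interval -0.094 to 0.38, limma adjusted p = 0.586). RefSeq lists 2 rat pseudogenes named after Glul, so its reads may be split and its level is uncertain.

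**Figure D3:**
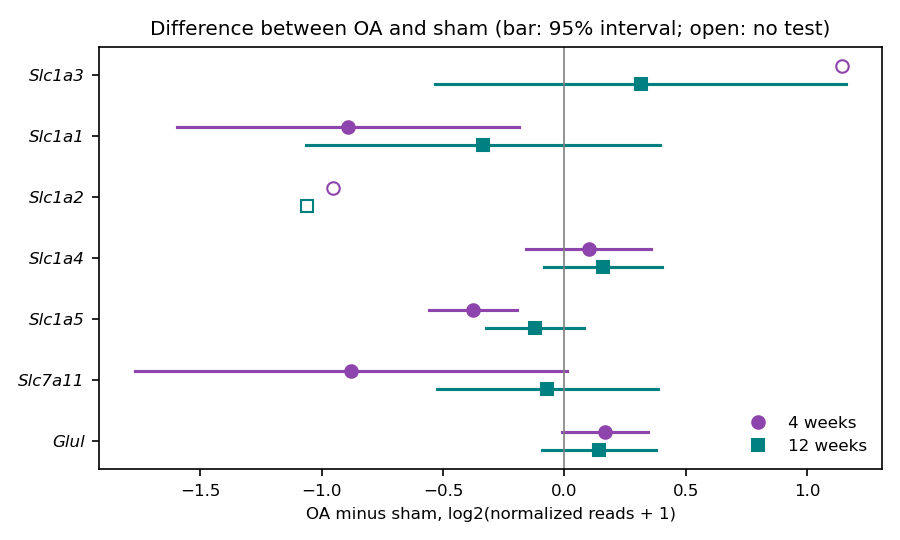
OA minus sham difference in mean log2(normalized reads + 1) of the 7 genes at 4 weeks (circles) and 12 weeks (squares); bars are 95% intervals from limma, and open symbols are values given without that test. Slc1a5 at 4 weeks has the narrowest interval that lies wholly below 0, Slc1a1 at 4 weeks also lies below 0, and the 12-week intervals all include 0.

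Leaving Slc1a3 at 4-weeks aside as untested, none of the 7 genes was called at either time point by limma, edgeR or DESeq2, where a call needs a log2 difference of at least 0.5 and an adjusted p under 0.05. The share of all genes called was 0.0% for limma and edgeR at both time points, and 0.0911% at 4-weeks and 0.345% at 12-weeks for DESeq2. Before adjustment, limma's p was under 0.05 for 2 of the 5 other genes tested at 4-weeks, Slc1a1 and Slc1a5, and for 0 of 6 at 12-weeks, beside 7.92% and 12.4% of all genes. Slc1a5 and Slc1a3, the latter chosen for it, had separate groups at 4-weeks. None of the 7 had separate groups at 12-weeks, where 6.29% of all genes did.

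Across the rest of the pathway, 109 of 114 listed genes were in the tables, in 9 lists covering carriers, glutamate and glutamine enzymes, glutathione, receptors, oxidative stress regulators and the sodium pump. Among the 81 that could be tested at 4-weeks, none passed limma's adjusted threshold, and 12 (14.8%) had an unadjusted p under 0.05, 4 higher and 8 lower in OA, beside 7.92% of all genes, 4.1% higher and 3.82% lower. Their median difference was 0.013, against 0.028 for all genes. Without the shallow sham replicate 3 the counts were 3 higher and 6 lower of 75. The glutamate receptor list gave 4 of its 11 tested genes, Gria2, Grik3, Grik4 and Grm6, all lower in OA, but 1 of 8 without that library. The list of the sodium pump and transporter trafficking gave 4 of 9, 1 higher and 3 lower, with and without it. The cystine list, in which Slc7a11 is counted, gave 0 of 5, and the oxidative stress list gave 0 of 10. Without sham replicate 3 each gave 1 lower gene, which in the cystine list was Slc7a11 itself.

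By size, genes well below sham at 4-weeks included the metabotropic glutamate receptor gene Grm6 (-1.66, limma adjusted p = 0.611) and the AMPA receptor subunit gene Gria2 (-0.71, adjusted p = 0.511). The highest Grm6 level was that of the shallow sham replicate 3, with 69.6 normalized reads against 5.53 to 18.4 in the other sham libraries. The genes furthest above sham were Gfpt2, which uses glutamine to start hexosamine synthesis (0.58, adjusted p = 0.614), the membrane scaffold gene Slc9a3r1 (0.23, adjusted p = 0.616) and the ornithine aminotransferase gene Oat (0.20, adjusted p = 0.577). Oat libraries had 1870 to 2084 normalized reads in OA and 1504 to 1883 in sham.

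At 12-weeks, 78 of these genes were tested, again with none past limma's adjusted threshold. An unadjusted p under 0.05 was found for 11 (14.1%), 8 higher and 3 lower in OA, beside 12.4% of all genes (5.75% higher and 6.62% lower). The groups did not overlap for 7 of the 78, which were Asns, Ctns, Oat and Slc25a13 (higher in OA) and Gria2, Hmox1 and Oplah (lower), beside 6.29% of all genes (2.85% higher and 3.44% lower); they are named because of these values.

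Gria2 had the lowest adjusted p of the pathway at 12-weeks and was also below sham at 4-weeks. OA replicates 1 to 4 had 498, 509, 471 and 457 normalized reads at 12-weeks. Sham replicates had 693, 703, 612 and 858. The groups were separate, with a difference of -0.56 (SE 0.099; exact permutation p = 0.0286, n = 4 and 4, the smallest possible). Limma did not call it (adjusted p = 0.264), whereas DESeq2 did (adjusted p = 0.00104), and so did limma without sham replicate 3 (adjusted p = 0.0242). Leaving out that library raised limma's calls over all genes from 0 to 81 of 14663 (0.552%). At 4-weeks OA replicates had 97.8, 102, 198, 102 and 107 normalized reads and sham replicates 194, 278, 130, 203 and 180, so that 4 of 5 OA libraries lay below every sham library and OA replicate 3 lay among them.

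Gfpt2 was above sham at both time points. At 12-weeks OA replicates had 1528, 1392, 1946 and 2233 normalized reads and sham replicates 839, 515, 1633 and 854. A single sham library, replicate 3, lay within the OA range; the difference was 0.98 (SE 0.29, limma adjusted p = 0.285) with it and 1.28 (adjusted p = 0.0294) without it. That library also had the highest fibroblast sum of the sham libraries, 103217 normalized reads against 68470 to 76236 in the other 3 and 98545 to 127507 in OA. At 4-weeks sham replicate 4 was the highest sham library both for Gfpt2, at 763, and for the fibroblast sum, at 127461. The means of 12 of the 13 fibroblast genes were higher in OA at each time point; their part in the Gfpt2 level was not tested. Among the 3 highest differences Gfpt2 stood with Ggt1, which breaks down glutathione outside the cell (1.03, adjusted p = 0.332, with 4.60 to 23.6 normalized reads), and Slc25a13, a mitochondrial aspartate-glutamate carrier (0.28, adjusted p = 0.286). Below sham were Oplah, a glutathione cycle enzyme that releases glutamate (-0.42, adjusted p = 0.275), and the haem oxygenase gene Hmox1 (-0.34, adjusted p = 0.278), with 2561 to 3149 normalized reads in OA and 3299 to 4019 in sham. In DESeq2 Hmox1 had an adjusted p of 0.0424 with a difference under the minimum for a call. At 4-weeks Hmox1 was at 2299 to 2874 in OA and 1279 to 3531 in sham, and sham replicate 1, also the highest for Slc7a11 and Slc1a5, was the highest.

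**Figure D4:**
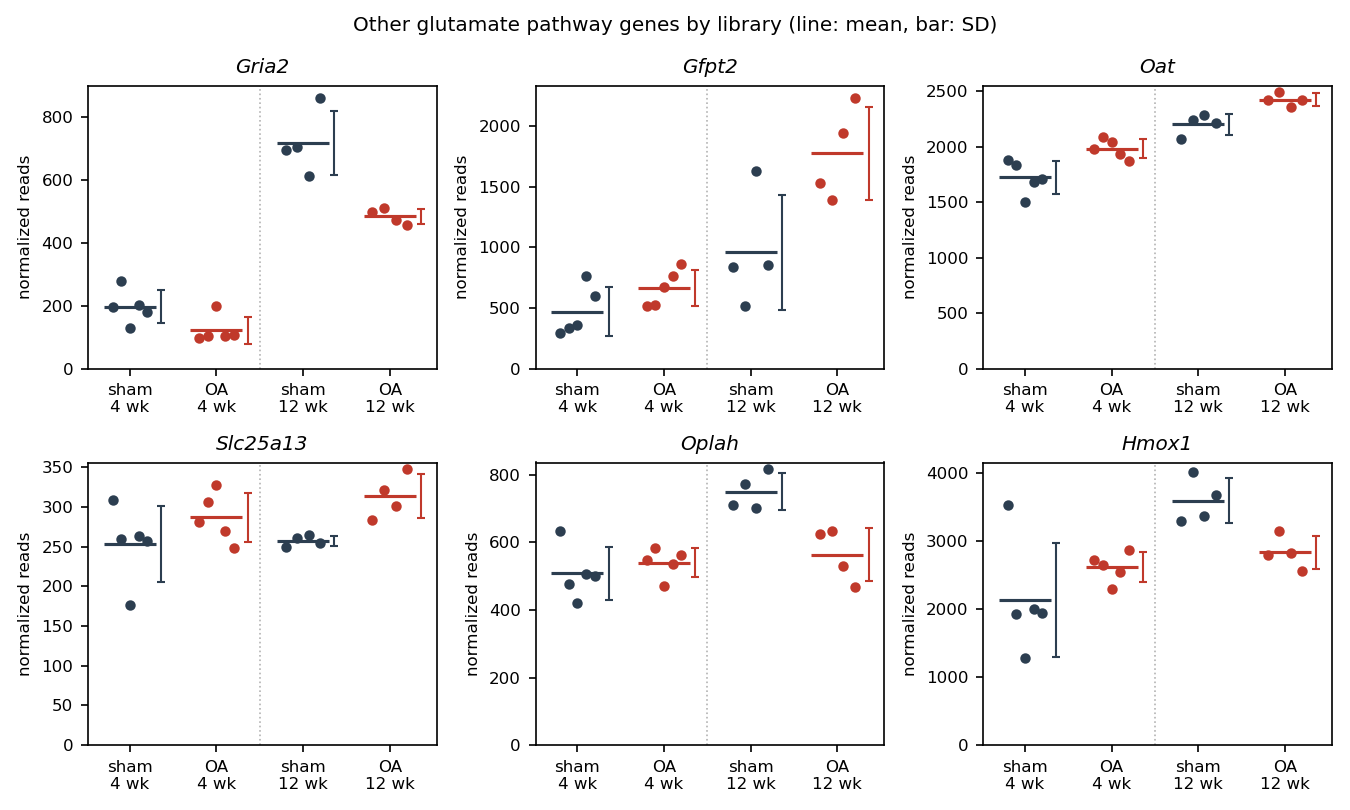
Normalized reads (vertical axes from 0) of 6 other glutamate pathway genes in every library by group and time point; points are libraries, lines are means and bars are SDs (n = 5 per group at 4 weeks and 4 at 12 weeks). At 12 weeks Gria2, Oplah and Hmox1 are lower and Oat and Slc25a13 higher in every OA library than in every sham library, and 1 sham library of Gfpt2 reaches into the OA range.

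The genes that varied most like Slc1a3 among 11507 compared were Vsig4, a complement receptor of tissue macrophages, Slc2a5, a fructose transporter, Pacsin1, an adaptor protein of endocytosis, Sh3bgrl2 and Ifngr1, the ligand-binding subunit of the interferon gamma receptor. They were ranked by the lower of the Pearson correlations with Slc1a3 on the log2 scale over the 10 libraries at 4-weeks and the 8 libraries at 12-weeks. These were 0.94 and 0.86 for Vsig4, 0.89 and 0.85 for Slc2a5, 0.90 and 0.84 for Pacsin1, 0.80 and 0.78 for Sh3bgrl2, and 0.78 and 0.77 for Ifngr1. The libraries of a correlation share their groups, so part of it is the difference between OA and sham. After subtraction of the group means, over all 18 libraries, it was 0.87 for Vsig4, 0.78 for Slc2a5, 0.79 for Pacsin1, 0.63 for Sh3bgrl2 and 0.62 for Ifngr1. The same 18 libraries had ranked these genes as the most alike among the 11507 compared, and the 4-week libraries had also chosen Slc1a3. High values are therefore partly a result of that choice, and they are no independent check of the likeness.

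The likeness at 12-weeks depended on few libraries. Sham replicate 2, lowest for Slc1a3, was also lowest for Vsig4 with 2810 normalized reads against 5182 to 6984 in the other sham libraries, for Slc2a5 with 227 against 379 to 511, and for Pacsin1 with 72.2 against 134 to 213. Without the 2 libraries farthest from the median of Slc1a3, the 12-week correlation was 0.41 for Vsig4, 0.23 for Slc2a5, 0.16 for Pacsin1, -0.11 for Sh3bgrl2 and 0.39 for Ifngr1. At 4-weeks the same step left 0.92, 0.83, 0.84, 0.67 and 0.78. The 8 libraries left there still came from both groups, which are separate for Slc1a3. These 4-week values therefore still hold the difference between OA and sham, and the step cannot show a likeness apart from it. Within the transport genes, the correlation with Slc1a3 at 4-weeks and 12-weeks was 0.76 and 0.68 for Glul, -0.83 and -0.62 for Slc1a5, -0.57 and -0.18 for Slc7a11, and 0.092 and -0.076 for Slc1a4. After subtraction of the group means it was 0.57 for Glul, -0.41 for Slc1a5, -0.14 for Slc7a11 and -0.26 for Slc1a4.

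**Figure D5:**
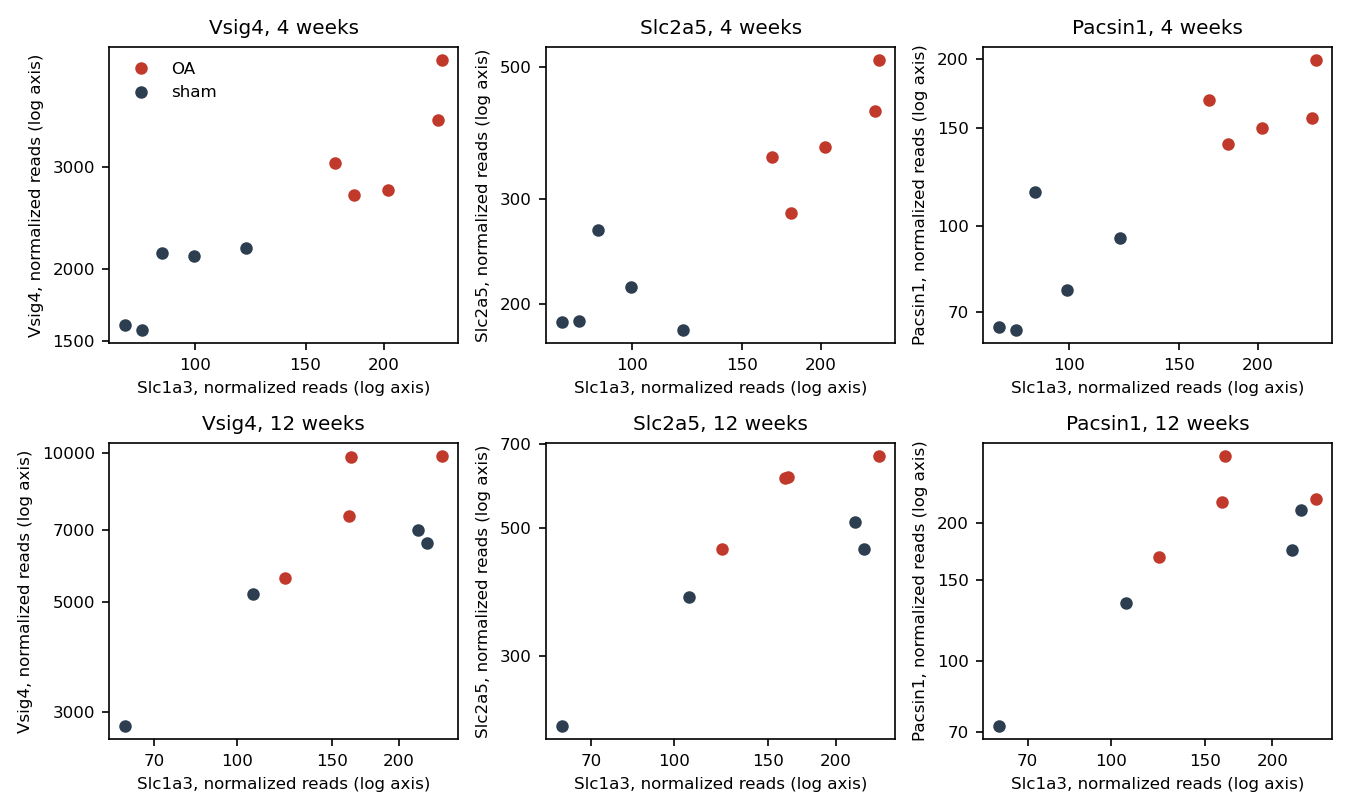
Normalized reads of Vsig4, Slc2a5 and Pacsin1 (vertical axes, log scale) against those of Slc1a3 (horizontal axes, log scale) in each library at 4 weeks (top, 10 libraries) and 12 weeks (bottom, 8 libraries), coloured by surgery. The points rise together at both time points, which is how these genes were picked. At 12 weeks a single sham library, replicate 2, sits far below and to the left of the others.

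Because Slc1a3 and Glul are best known from glia, markers of Schwann cells and satellite glia were examined beside them. All 13 were listed, and Fabp7 averaged 0.77 normalized reads in OA and 1.31 in sham at 4-weeks, Gfap 8.14 and 14.4, and Sox10 13.8 and 22.7. The sums of the list overlapped between the groups at 4-weeks, at 7936 to 8904 in OA and 6146 to 8325 in sham. At 12-weeks the sums also overlapped, at 10356 to 11044 in OA and 9446 to 11040 in sham. Fibroblast sums overlapped at 12-weeks as well, at 98545 to 127507 in OA and 68470 to 103217 in sham. Chondrocyte sums at 12-weeks were 2851 to 5816 in OA and 1352 to 3573 in sham. Mast cell sums were 1571 to 3059 in OA and 2035 to 3889 in sham, and neutrophil sums 1186 to 3902 and 1439 to 5231. Skeletal muscle was the list whose sums did not overlap at 12-weeks, at 1715 to 2837 in OA and 1369 to 1517 in sham. No marker of the 13 cell type lists was at 0 in every library, and their part in the Slc1a3 level was not tested.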

How the data were processed

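RNA of CD11b/c+ synovial cells was sequenced from Illumina stranded total RNA libraries after ribosomal depletion. The authors checked reads with fastp 0.20.0, aligned them with STAR 2.7.6a to the rat genome, removed duplicates, counted them with featureCounts 2.0.0 and deposited DESeq2 1.24.0 normalized read counts, a library-scaled signal, in 1 table per time point. Whether counting used strand is not given in the sources used here. The deposited tables also hold the authors' own log2 fold changes, scores of the test and p-values, which were not used. Every normalized value was a whole multiple of the value of 1 read within 0.01, so whole reads were recovered (100.0% of values in each library).

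Samples were grouped by surgery and time from the labels, which give 4 libraries per group at 12-weeks where the study's methods give another number. Limma 3.58.1 (R 4.3.3) with a trend was run on log2(normalized reads + 1) over genes with a mean of at least 10, with Benjamini-Hochberg adjustment over all of them. A single gene was also tested by an exact two-sided permutation test of its mean log2 value, unadjusted. Differences between time points used log2 CPM (read counts scaled to library size, TMM, prior count 2). Alternatives were pseudocounts of 0.5 and 5, no filter, a minimum mean of 50, TMM, edgeR 4.0.16, DESeq2 1.42.0, a replicate block and leaving out each library. On simulated counts with 200 genes changed by log2 1.5, limma recovered 97% of them with 3 false calls at 4-weeks (14849 genes) and 94% with 6 at 12-weeks (14632 genes).

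The 7 genes, the pathway and marker lists and the tests were chosen with earlier results of these data known. Named beside the 7 were Slc3a2, at each time the up to 3 highest and 3 lowest pathway genes with an unadjusted limma p under 0.05, and the 5 genes most like Slc1a3 with a mean of at least 50; some genes of these lists are not reported here. Same-numbered OA and sham libraries did not deviate together (correlations -0.13 to 0.080 at 4-weeks and -0.026 to 0.30 at 12-weeks), so numbers were not treated as pairs. The 32 pairs of libraries within a group differed beyond sampling noise (chi-square 5.84 to 38.8 per degree of freedom), so each was counted as its own sample. Intervals on reads cover counting error only. RefSeq symbols of assembly GRCr8 matched all 7 genes; the files use another build, so no positions are given.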

Additional observations from a re-analysis of the deposited data

Results flagged for a closer look

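In 32 sets of libraries examined, 7 genes and the Slc1a3 share within each group, 1 library stood apart by Dixon's test, which by chance marks about 1 set in 20. This was Slc1a5 in sham replicate 1 at 4-weeks, at 872 normalized reads against 687 to 719 in the other 4 sham libraries. The same library was the highest sham library for Slc7a11 (602 normalized reads) and Hmox1 (3531).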

How the results depend on the processing

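Leaving Slc1a3 at 4-weeks aside as untested, none of the 7 genes was called at either time point in any alternative run; without the fold minimum limma still called 0, and the adjusted p of Slc1a5 at 4-weeks was 0.0144 in DESeq2. Slc1a3 at 12-weeks ranged from -0.055 (without sham replicate 2) to 0.56 over the fits that left out a library, Slc7a11 at 12-weeks from -0.27 to 0.11 (without OA replicate 3). The difference of the Glul effect between time points, 0.0066, was -0.020 in DESeq2 and -0.038 to 0.089 over fits without a library. Pathway genes with an unadjusted p under 0.05 at 4-weeks, with the 7 genes other than Slc1a3 counted in, were 14, but 29 in DESeq2 and 6 to 16 over fits without a library (6 without OA replicate 2, and 8 without OA replicate 3 or sham replicate 2); at 12-weeks they were 8 to 16. The cause of these shifts was not tested. With the replicate number as a block, Slc1a5 at 4-weeks had an adjusted p of 0.415 and pathway counts were 12 and 11; no call among the 7 moved, and over all genes limma called 1 at 4-weeks instead of 0. Of the 9 numbers, 1, replicate 3 at 12-weeks, had its OA library correlate best with the sham library of the same number. Of 399 alternative values, 383 kept direction and side, 12 turned sign and 4 counts moved past 1.5 times. Depth limits Slc1a2 and Slc1a1 most.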
